A study of Mus musculus with 6 samples.

Results

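The 32 genes described here are macrophage genes: phagocyte receptors and their adaptors, scavenger receptors of tissue macrophages, and genes for iron, lipid and lysosomal handling. They were picked by gene name from the 38293 genes measured by RNA-sequencing in 6 mouse tumors, and all 32 were found. The 2 miR-146a-deficient tumors (Eμ-Myc miR-146a-/-) came from the thymus of C57BL6 mice aged 11 weeks (replicate 1) and 10 weeks (replicate 2), labelled female. The 4 miR-146a-sufficient tumors (Eμ-Myc miR-146a+/+) came from C57BL6 males. Sufficient replicates 1 and 2 were neck nodes, at 18 and 16 weeks, and sufficient replicates 3 and 4 were thymic, both at 10 weeks. All 6 mice carry the Myc transgene, which the Eμ enhancer drives in the B lineage, and the knockout mice lack miR-146a in every cell.

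Whole tumor suspensions were sequenced with no sort, so each value mixes B-lineage tumor cells with all host cells present. In such bulk RNA, fewer cells of a type and less RNA per cell cannot be told apart. Values are RPKM (reads per kilobase of gene, scaled for sequencing depth), 1 per tumor, with a depth that is unknown. Cd79a, a subunit of the B-cell receptor, measured 388 to 550 RPKM over the 6 tumors, so RNA of the labelled B lineage was abundant in each. The sum of all RPKM was 1932926 and 714062 in the deficient tumors, against 675516 to 788919 in the sufficient tumors. Xist alone accounts for the high first total, and without it the sums were 692853 and 712244 in the deficient tumors, against 673931 to 787151 in the sufficient tumors. How gene length and depth entered these values is not stated, so the Xist totals serve only to compare tumors. The Y-linked gene Ddx3y was 0.130 RPKM in deficient replicate 1 but 24.6 RPKM in deficient replicate 2, against 17.9 to 23.0 RPKM in the males. Leaving out Xist lowered the sum of deficient replicate 2 only from 714062 to 712244, much as in the males. By both genes deficient replicate 2 was like the males, so its label as female is in doubt.

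Macrophages are tissue phagocytes that depend on signals through the CSF1 receptor. They bind particles and dying cells through Fc, lectin and scavenger receptors, signal through adaptors with activation motifs, and digest their cargo with lysosomal proteases. Iron and lipid from the cargo are recycled or exported. In fast-growing B-cell lymphomas they take up dying tumor cells, which gives the starry-sky look of the tissue. miR-146a is induced by NF-κB and, in mouse myeloid cells, dampens signals from Toll-like receptors.

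The mature microRNA that the knockout removes is printed first, with its seed (bases 2 to 8) in capitals, because it sets which 3′UTRs could pair with it. It lies on chromosome 11 at chr11:43374435-43374456, minus strand, in the RefSeq table on GRCm38.p6.
miR-146a-5p: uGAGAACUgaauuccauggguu
A match of at least 7 bases to this seed (AGTTCTC or GTTCTCA) was present in the longest annotated 3′UTR of 2 of the 32 members, Csf1r and Ctsb. That is 6.25% of the members, against 20.0% of the 10707 tested genes that have an annotated 3′UTR. Csf1r held 2 matches and Ctsb held 3. The Ctsb matches are shown because that lysosomal protease is one of the members above every sufficient tumor. They lie on chromosome 14, plus strand, GRCm38, in its terminal exon, and the capitals mark the match.
Ctsb, chr14:63142783-63142812: tggcccagtgcAGTTCTCtggagaaagcta
Ctsb, chr14:63143205-63143234: cctcagaaatgGTTCTCAaaaccgtacctg
Ctsb, chr14:63145393-63145422: gctgaggcactGTTCTCAaaagggctcaat
A match of letters is a description and not evidence of pairing in these tumors.

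The first comparison asked how the macrophage genes differed between miR-146a-deficient and miR-146a-sufficient tumors. No member passed the adjusted threshold of 0.05, with the lowest adjusted p at 0.212 for Apoe (limma on log2(RPKM + 1), Benjamini-Hochberg over all 12751 genes tested), where 0.0627% of all tested genes passed (0.0549% as higher and 0.00784% as lower). Of the 32 members, 30 reached the minimum for testing, 0.5 RPKM in 2 or more tumors, and Cd163 and Vsig4 did not. Timd4, Ms4a7 and Siglec1 reached it only in the deficient tumors, so each had to be higher there. The log2 fold change was positive for 24 and negative for 6 of the 30, where 67.6% of all tested genes were positive. Its median was 0.55 over the 30 members and 0.13 over all tested genes. Median-ratio scaling of the tumors moved these medians to 0.41 and -0.01, so single values are best read against the shift of 0.13.

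At an unadjusted p under 0.05, 10 members were higher and 0 lower, where 2.88% of all tested genes were higher and 0.737% lower. In 11 of the 30 tested members both deficient tumors lay above all 4 sufficient tumors, where 9.15% of all tested genes did so. In 0 members both lay below, where 2.09% of all tested genes did so. The position of Timd4, Ms4a7 and Siglec1, among the 11, was fixed by the minimum, and Timd4 and Siglec1 are also among the 10. With the minimum required in at least 2 sufficient tumors, 7 of 26 members lay above, where 8.81% of all genes under that minimum did so. The exact two-sided permutation test over the 15 splits of 4 and 2 tumors cannot go below 0.133, which is the p of each of those 11 members. The plot of member levels by tumor shows all 32 genes by role.

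**Figure D1:**
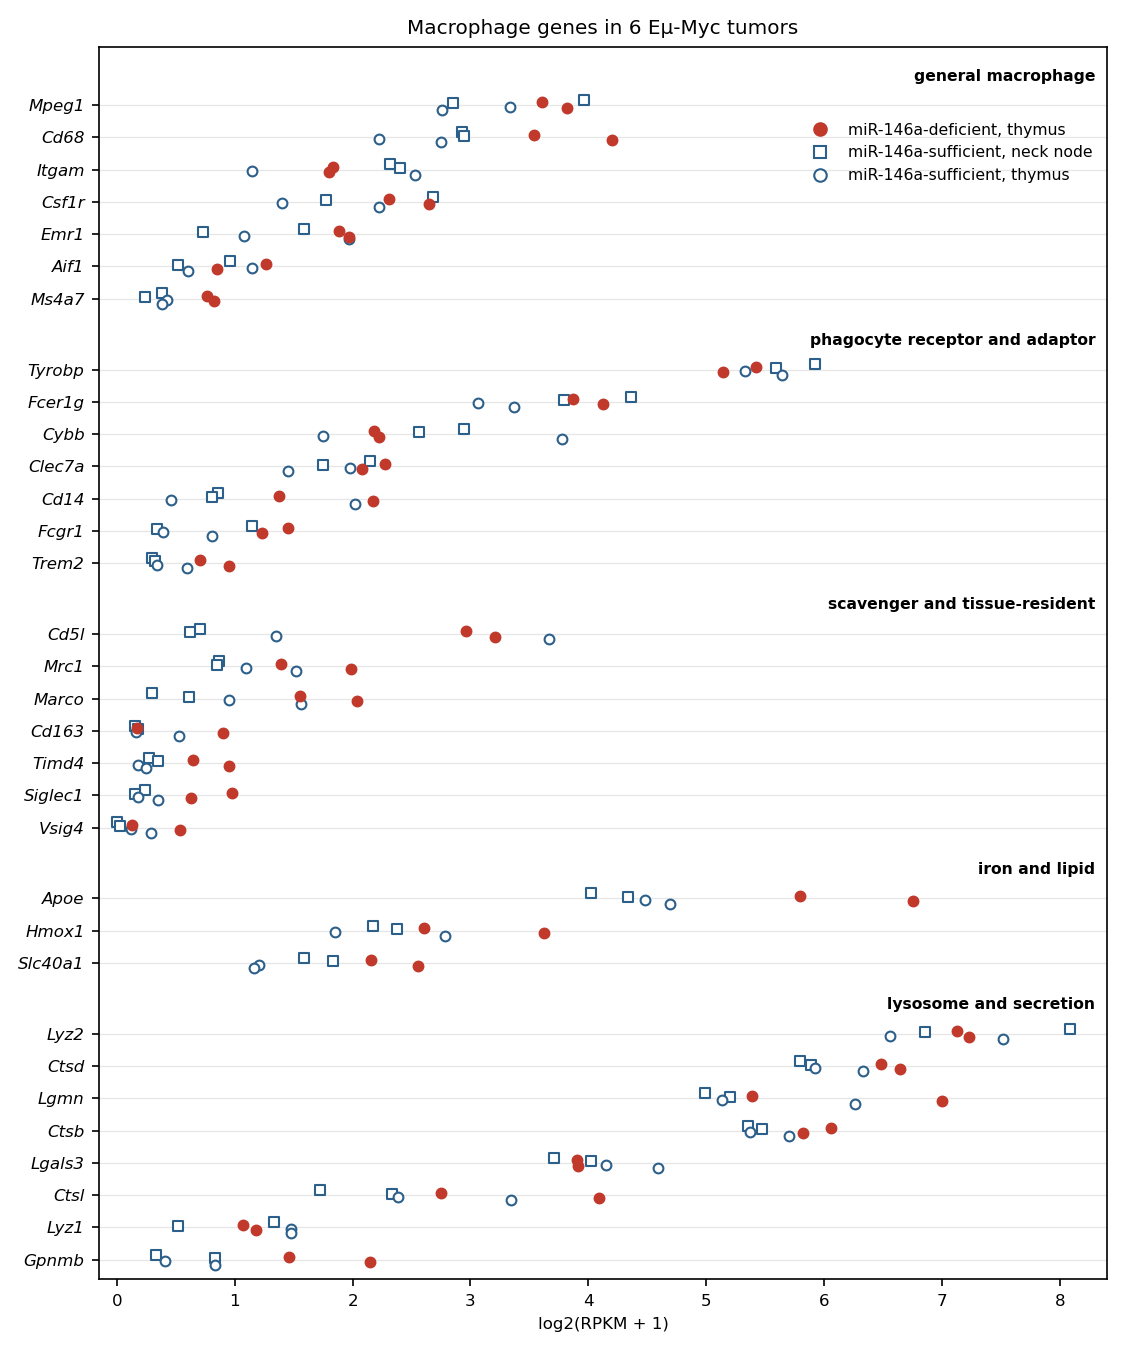
Level of each of the 32 macrophage genes in each tumor, as log2(RPKM + 1) on the x axis, with genes grouped by role down the page; filled red circles are the 2 miR-146a-deficient thymic tumors, open squares the 2 sufficient neck node tumors and open circles the 2 sufficient thymic tumors. Apoe, Gpnmb and Cd68 show both red circles to the right of all open symbols, while Lyz2, Tyrobp and Itgam show them among or to the left of the open symbols.

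Among the general macrophage genes, Cd68 had the largest log2 fold change of RPKM + 1, and Ms4a7, at low levels, had a slightly higher ratio of means (2.60). Cd68 (chr11:69664213-69666153, GRCm38) encodes a lysosomal membrane glycoprotein of phagocytes. Its level was 10.6 and 17.4 RPKM in the deficient tumors, against 6.60, 6.72, 3.68 and 5.71 RPKM in the sufficient tumors. The groups did not overlap, and the lowest deficient value was above the highest sufficient neck node value. The means were 14.0 ± 4.87 RPKM (SD, n = 2) and 5.68 ± 1.40 RPKM (SD, n = 4), a ratio of 2.47. The log2 fold change was 1.16 with a standard error of 0.30 (limma adjusted p = 0.893).

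Csf1r, the receptor for CSF1 and IL-34, measured 3.95 and 5.26 RPKM in the deficient tumors, against 5.41, 2.42, 1.64 and 3.67 RPKM in the sufficient tumors. Both deficient values fell inside the sufficient range. Emr1, which encodes the F4/80 antigen of mouse macrophages, measured 2.69 and 2.92 RPKM in the deficient tumors, against 2.01, 0.661, 1.11 and 2.91 RPKM in the sufficient tumors. Sufficient replicate 4 reached the level of the deficient tumors, and the other 3 sufficient tumors were below it. Ms4a7, a membrane protein of the CD20 family found on macrophages, was low throughout, at 0.703 and 0.773 RPKM in the deficient tumors against 0.181 to 0.344 RPKM in the sufficient tumors. The groups did not overlap for Ms4a7, which entered the test only through the deficient tumors. Mpeg1, which encodes the pore-forming protein perforin-2, and Aif1, the calcium-binding protein Iba1, overlapped between groups, with log2 fold changes of 0.49 and 0.25. Itgam, the CD11b integrin chain that macrophages share with neutrophils, was 2.56 and 2.49 RPKM in the deficient tumors, against 3.97, 4.28, 1.21 and 4.78 RPKM in the sufficient tumors, with a log2 fold change of -0.28.

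The phagocyte receptors and their adaptors had log2 fold changes of both signs. These ran from -0.55 to 0.74 with a median of 0.35. Fcgr1, the high-affinity IgG receptor, measured 1.74 and 1.35 RPKM in the deficient tumors, against 1.22, 0.263, 0.312 and 0.748 RPKM in the sufficient tumors. The groups did not overlap, and sufficient replicate 1 came closest (log2 fold change 0.67 ± 0.29 SE, limma adjusted p = 0.893). Trem2, a lipid-sensing receptor, measured 0.628 and 0.938 RPKM in the deficient tumors, against 0.232, 0.250, 0.269 and 0.508 RPKM in the sufficient tumors. It also lay above all sufficient tumors, of which sufficient replicate 4 alone reached the minimum of 0.5 RPKM.

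Tyrobp encodes DAP12, the adaptor through which TREM2 signals. Its level was 41.9 and 34.4 RPKM in the deficient tumors, against 59.5, 47.1, 39.2 and 49.1 RPKM in the sufficient tumors. The receptor and its adaptor therefore had log2 fold changes of opposite sign, 0.44 for Trem2 and -0.34 for Tyrobp, and neither passed the adjusted threshold. Fcer1g, the signaling chain shared by Fc receptors, measured 13.6 and 16.4 RPKM in the deficient tumors, against 19.6, 12.9, 7.34 and 9.33 RPKM in the sufficient tumors. Its values overlapped, and both neck nodes were above both thymic sufficient tumors. Cybb, the catalytic subunit of the phagocyte NADPH oxidase, measured 3.55 and 3.67 RPKM in the deficient tumors, against 6.70, 4.91, 2.37 and 12.7 RPKM in the sufficient tumors, with a log2 fold change of -0.55. Clec7a, the β-glucan receptor dectin-1, and Cd14, the co-receptor for lipopolysaccharide, overlapped between groups with log2 fold changes of 0.35 and 0.74.

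All 5 tested scavenger and tissue-resident genes had positive log2 fold changes, of 0.54 to 1.50. Marco, a class A scavenger receptor, measured 1.93 and 3.11 RPKM in the deficient tumors, against 0.230, 0.533, 0.935 and 1.95 RPKM in the sufficient tumors. Sufficient replicate 4 exceeded deficient replicate 1 by a small margin, and the other 3 sufficient tumors were lower (log2 fold change 0.94 ± 0.36 SE, limma adjusted p = 0.893). Siglec1, the sialic acid receptor CD169 of lymph node and splenic macrophages, measured 0.963 and 0.544 RPKM in the deficient tumors, against 0.180, 0.112, 0.135 and 0.275 RPKM in the sufficient tumors. Timd4, a receptor for phosphatidylserine on dying cells, measured 0.568 and 0.932 RPKM in the deficient tumors, against 0.205, 0.271, 0.135 and 0.190 RPKM in the sufficient tumors. Neither Siglec1 nor Timd4 overlapped between groups, and both entered the test only through the deficient tumors.

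Cd5l, a secreted scavenger protein of tissue macrophages, had the widest spread of the scavenger genes. Its level was 6.78 and 8.24 RPKM in the deficient tumors, against 0.635, 0.542, 1.55 and 11.7 RPKM in the sufficient tumors. Sufficient replicate 4 was the highest of all 6 tumors, and the other 3 sufficient tumors were below both deficient ones (log2 fold change 1.50 ± 0.77 SE). Mrc1, the mannose receptor CD206, measured 1.63 and 2.97 RPKM in the deficient tumors, against 0.801 to 1.87 RPKM in the sufficient tumors. Cd163, the receptor for hemoglobin bound to haptoglobin, and Vsig4, a complement receptor of resident macrophages, stayed under the minimum for testing. Cd163 measured 0.129 and 0.864 RPKM in the deficient tumors against 0.116 to 0.439 RPKM in the sufficient tumors, and Vsig4 0.0921 and 0.450 RPKM against 0 to 0.219 RPKM. For both genes deficient replicate 1 lay inside the sufficient range and deficient replicate 2 above it.

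The 3 iron and lipid genes included the member with the lowest p. Apoe (chr7:19696109-19699188, GRCm38) encodes apolipoprotein E, through which macrophages export cholesterol. Its level was 54.6 and 107 RPKM in the deficient tumors, against 15.3, 19.2, 21.3 and 24.8 RPKM in the sufficient tumors. The groups did not overlap, and deficient replicate 1 alone was above the highest sufficient tumor by more than the whole sufficient range. The means were 80.9 ± 37.2 RPKM (SD, n = 2) and 20.1 ± 3.96 RPKM (SD, n = 4), a ratio of 4.02. The log2 fold change was 1.90 ± 0.31 SE (limma adjusted p = 0.212).

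Slc40a1 (chr1:45908068-45926523, GRCm38), the iron exporter ferroportin, measured 3.46 and 4.86 RPKM in the deficient tumors, against 2.01, 2.56, 1.31 and 1.24 RPKM in the sufficient tumors. The groups did not overlap, and the ratio of means was 2.33 (log2 fold change 0.90 ± 0.28 SE, limma adjusted p = 0.893). Hmox1, which encodes the heme oxygenase that releases iron from heme, measured 5.10 and 11.3 RPKM in the deficient tumors, against 3.52, 4.18, 2.60 and 5.87 RPKM in the sufficient tumors. Sufficient replicate 4 lay between the deficient tumors.

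The lysosomal and secreted genes divided into proteases and Gpnmb with positive log2 fold changes, and lysozymes and galectin-3 with negative ones. Gpnmb (chr6:49036546-49070929, GRCm38) encodes a membrane glycoprotein that lipid-laden macrophages express. Its level was 1.75 and 3.43 RPKM in the deficient tumors, against 0.261, 0.781, 0.325 and 0.783 RPKM in the sufficient tumors. The groups did not overlap, and the ratio of means, 4.82, was the highest of the 32 members. The log2 fold change was 1.20 ± 0.29 SE (limma adjusted p = 0.818).

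Ctsd, the aspartic protease cathepsin D, measured 88.3 and 99.0 RPKM in the deficient tumors, against 54.7, 58.2, 59.5 and 79.3 RPKM in the sufficient tumors. Ctsb, the cysteine protease cathepsin B whose seed matches are printed above, measured 65.5 and 55.7 RPKM in the deficient tumors, against 40.0, 43.3, 40.3 and 51.2 RPKM in the sufficient tumors. Both proteases lay above every sufficient tumor by small margins over sufficient replicate 4, with ratios of means of 1.49 and 1.39. Ctsl, cathepsin L, and Lgmn, the asparaginyl protease legumain, were highest in deficient replicate 2. Ctsl measured 5.72 and 16.0 RPKM in the deficient tumors against 2.31, 4.04, 4.21 and 9.13 RPKM in the sufficient tumors, and Lgmn 41.0 and 127 RPKM against 30.7, 35.8, 34.1 and 75.9 RPKM. Without deficient replicate 2 the log2 fold change of Lgmn, 0.80 over all tumors, was -0.00.

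Lyz2 and Lyz1 encode secreted lysozymes and are near-identical copies, so how the authors' counting split reads between them is uncertain. Lyz2, with the highest mean level of all members, measured 139 and 149 RPKM in the deficient tumors, against 271, 115, 93.3 and 182 RPKM in the sufficient tumors. Lyz1 measured 1.10 and 1.27 RPKM in the deficient tumors, against 1.52, 0.436, 1.79 and 1.79 RPKM in the sufficient tumors. Both overlapped between groups, with log2 fold changes of -0.07 and -0.08. Lgals3, the secreted lectin galectin-3, measured 14.0 and 14.1 RPKM in the deficient tumors, against 12.1, 15.3, 16.7 and 23.1 RPKM in the sufficient tumors.

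Lysosomal genes in mammals are often driven through E-box elements bound by the TFEB family. Windows at listed starts of the members were therefore searched for CACGTG. The search was chosen after the values were seen. RefSeq windows of 250 bases before to 50 bases after the start were at hand for 24 of the 32 members. CACGTG, which reads the same on both strands, was found in 3 of them, Ctsd, Ctsl and Lgmn, against 8.09% of the 27025 genes with a window. TCACATGA and GAGGAAGT, searched on both strands and not overlapping CACGTG, were found in 0 members, against 1.15% and 3.69% of genes. The Ctsd window is printed because it held 2 matches, 245 and 98 bases before the start. It is chr7:142387828-142388077, minus strand, GRCm38.p6, with the matches in capitals.
Ctsd: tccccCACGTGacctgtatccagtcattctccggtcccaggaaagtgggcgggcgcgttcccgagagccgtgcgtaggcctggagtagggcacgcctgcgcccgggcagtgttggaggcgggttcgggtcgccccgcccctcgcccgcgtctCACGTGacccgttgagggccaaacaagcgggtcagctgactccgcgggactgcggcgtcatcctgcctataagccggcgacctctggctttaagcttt
In Ctsl the match lay 236 bases and in Lgmn 49 bases before a listed start. Both windows, chr13:64370521-64370770 and chr12:102439093-102439342, lie inside the annotated genes, which on the minus strand begin at 64370890 and 102439813. Ctsd is annotated to begin at 142388038, so its match 98 bases before the listed start is also inside the gene. Those 3 matches are therefore not shown to lie in promoters. No binding was measured in these tumors, so which factor, if any, binds these matches was not tested.

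The members were also grouped by how widely other cells express them. Of all tested genes, 67.6% had a positive log2 fold change, and the median was 0.13. Of the 16 macrophage-restricted members, the 14 tested had positive log2 fold changes, with a median of 0.58. Among them 7 lay above every sufficient tumor, where 9.15% of all tested genes did so. Those 7 include Timd4, Ms4a7 and Siglec1, which entered the test through the deficient tumors alone and so had to be higher there. Of the 8 members expressed by many cell types (Apoe, Slc40a1, Hmox1, Ctsd, Ctsb, Ctsl, Lgmn and Lgals3), 7 were positive, with a median of 0.81 and 4 above every sufficient tumor, and Lgals3 was negative. Of the 8 members shared with neutrophils or other myeloid cells (Itgam, Fcer1g, Tyrobp, Cybb, Clec7a, Cd14, Lyz1 and Lyz2), 3 were positive and 5 negative, with a median of -0.08 and 0 above every sufficient tumor. These groups were drawn up with earlier results known, and no test of the difference between them was made. The plot of log2 fold changes shows the groups side by side.

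**Figure D2:**
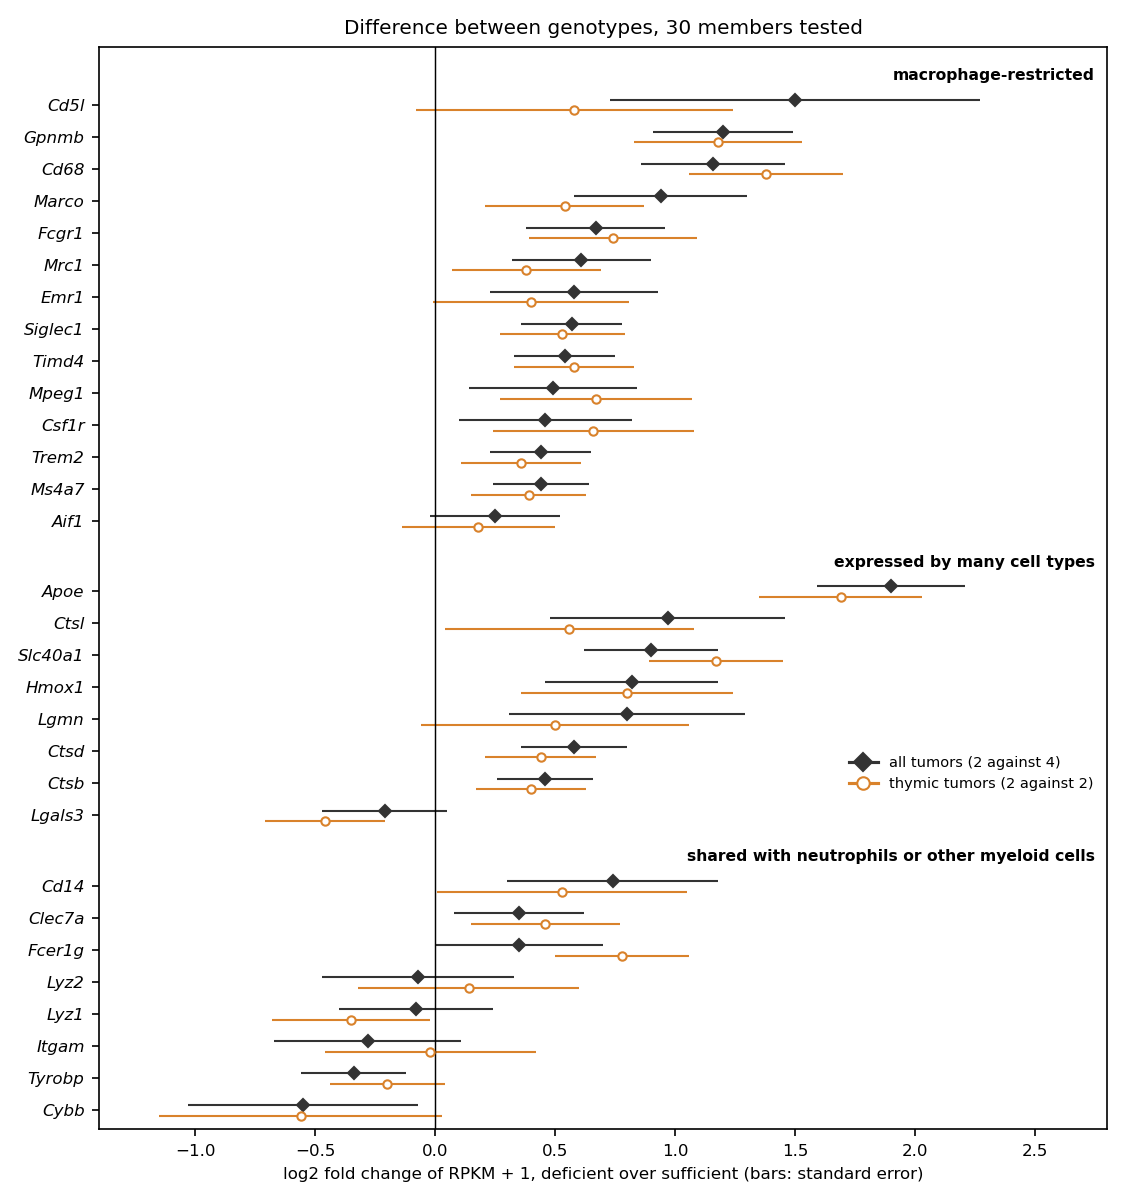
Log2 fold change of RPKM + 1, deficient over sufficient, on the x axis for the 30 tested members, grouped by breadth of expression down the page; black diamonds are all tumors (2 against 4), open circles thymic tumors (2 against 2) and bars 1 standard error from limma. The 14 macrophage-restricted genes lie right of 0 in both comparisons, and those shared with neutrophils lie on either side. Of all tested genes, 67.6% (all tumors) and 68.5% (thymic tumors) were positive. Timd4, Ms4a7 and Siglec1, among the 14, entered the test only through the deficient tumors.

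The minimum on low values let 3 members (Timd4, Ms4a7 and Siglec1) enter through the deficient tumors alone, so each had to be higher there, and Trem2 reached it in both deficient tumors and 1 sufficient tumor. With the minimum required in at least 2 sufficient tumors, 26 members remained, of which 20 were positive, 9 were higher at an unadjusted p under 0.05 and 7 lay above every sufficient tumor (2.50% and 8.81% of all genes under the same minimum). Under it, 10 macrophage-restricted members were left, 10 of them positive (67.6% of genes in the main test) and 3 above every sufficient tumor. That minimum was chosen after the data were seen.

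Tumors of the same group also differed from each other. Deficient replicate 2 was the highest of the 6 tumors for 17 of the 32 members and deficient replicate 1 for 5. Sufficient replicates 1 and 4 were the highest for 5 members each, and sufficient replicates 2 and 3 for 0. The share of all genes highest in each tumor was not computed. Over all tested genes, deficient replicate 2 lay above every sufficient tumor for 37.7%, and median-ratio scaling gave it the largest factor, 1.163. Without deficient replicate 2, 2 of 27 members tested were higher at an unadjusted p under 0.05 in place of 10 of 30, where 0.971% of all tested genes were higher. That fit takes its spread from the sufficient tumors alone and drops Timd4, Siglec1 and Ms4a7 by the minimum, of which Timd4 and Siglec1 were among the 10. Without sufficient replicate 2 or 3 there were 5 in each case, where 4.24% and 2.05% of all tested genes were higher. Without sufficient replicate 4, 19 of the 30 tested members lay above every remaining sufficient tumor in place of 11, and without deficient replicate 1 there were 18. With the same tumor left out, 14.5% and 37.7% of all tested genes lay above, in place of 9.15%. With the untested Vsig4 included, the 9 members added without sufficient replicate 4 were Emr1, Mrc1, Vsig4, Cd14, Hmox1, Marco, Cd5l, Ctsl and Lgmn.

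Because both deficient tumors were thymic, a second comparison set them against the 2 thymic sufficient tumors, with a spread shared over the 3 groups of tumors. It shares both deficient tumors and sufficient replicates 3 and 4 with the first. Again 0 members passed the adjusted threshold (limma, lowest adjusted p = 0.545), where 0.0235% of all tested genes passed. At an unadjusted p under 0.05, 5 members were higher (Cd68, Fcer1g, Slc40a1, Apoe and Gpnmb) and 0 lower, where 6.78% of all tested genes were higher and 2.19% lower. Of the 30 tested members, 15 lay above both thymic sufficient tumors and 2, Lyz1 and Lgals3, lay below, where 32.1% of all tested genes lay above and 10.5% below. The 15 include Timd4, Ms4a7 and Siglec1, which entered the test only through the deficient tumors and so had to be higher there. The log2 fold change was positive for 25 of the 30, where 68.5% of all tested genes were positive, with medians of 0.51 for the members and 0.19 for all tested genes.

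Apoe kept a log2 fold change of 1.69 ± 0.34 SE among thymic tumors, and Gpnmb 1.18 ± 0.35 SE. For Cd68 and Slc40a1 the thymic values were 1.38 ± 0.32 SE and 1.17 ± 0.28 SE, which are above those over all tumors. Fcer1g was 0.78 ± 0.28 SE, and its 2 thymic sufficient tumors were the lowest of the 6. For Cd5l and Marco the thymic values were 0.58 ± 0.66 SE and 0.54 ± 0.33 SE, below those over all tumors.

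The last comparison, neck node against thymic tumors with miR-146a intact, asked how far the members follow the tumor site. Among these tumors site and age coincide (neck nodes at 18 and 16 weeks, thymic tumors at 10 weeks) and cannot be told apart. In it 0 members passed the adjusted threshold (limma, lowest adjusted p = 0.573), where 0.0157% of all tested genes passed. Fcer1g was higher in the neck nodes at an unadjusted p under 0.05, where 5.57% of all tested genes were, and Marco and Cd5l were lower, where 2.62% were. Fcer1g measured 19.6 and 12.9 RPKM in neck nodes and 7.34 and 9.33 RPKM in thymic tumors, a log2 fold change of 0.86. Marco measured 0.230 and 0.533 RPKM in neck nodes and 0.935 and 1.95 RPKM in thymic tumors, a log2 fold change of -0.80. The sites did not overlap for either gene. Cd5l measured 0.635 and 0.542 RPKM in neck nodes and 1.55 and 11.7 RPKM in thymic tumors, a log2 fold change of -1.84, and of -0.68 without sufficient replicate 4. Without sufficient replicate 2 or 4, 0 members were lower in the neck nodes, where 1.92% and 2.42% of all tested genes were. Without replicate 1 there was 1 (2.23% of all tested genes), and without replicate 3 there were 5 (3.85%). The call of Fcer1g was lost without sufficient replicate 1 or 3. In 4 of the 30 tested members both neck nodes lay above both thymic tumors (Cd68, Slc40a1, Timd4 and Fcer1g), where 27.4% of all tested genes did so. In 9 both lay below (Mrc1, Lyz1, Marco, Apoe, Trem2, Cd5l, Ctsd, Ctsl and Lgals3), where 12.7% of all tested genes did so. Of those below, Apoe, Trem2 and Ctsd are also among the members whose deficient tumors lay above every sufficient tumor. The log2 fold change was positive for 11 of the 30, where 60.7% of all tested genes were positive, with medians of -0.08 for the members and 0.10 for all tested genes.

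Other genes of the same pathways were compared over all tumors, and 0 of them passed the adjusted threshold (limma), while 5 of the 77 tested were higher and 0 lower at an unadjusted p under 0.05, where 2.88% of all tested genes were higher and 0.737% lower. Over all tested genes 67.6% of log2 fold changes were positive, with a median of 0.13. Of 27 further lysosomal genes, 23 had positive log2 fold changes, with a median of 0.29. They ran from -0.14 for Lamp2, a lysosomal membrane protein, to 0.92 for Gaa, the acid α-glucosidase. Of 24 further genes of phagocytosis and myeloid signaling, 13 were positive and 11 negative, with a median of 0.02, below that of all tested genes. These bulk values do not separate RNA of host myeloid cells from that of tumor cells. Csf1, a ligand of the CSF1 receptor, measured 0.790 and 1.95 RPKM in the deficient tumors, against 1.07, 1.14, 0.811 and 6.13 RPKM in the sufficient tumors, and the second ligand, Il34, stayed at or under 0.0375 RPKM.

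Of 12 further iron recycling genes, 7 were positive and 5 negative, with a median of 0.15, where 67.6% of all tested genes were positive, with a median of 0.13. Spic, the transcription factor of iron-recycling red pulp macrophages in mice, measured 0.506 and 2.64 RPKM in the deficient tumors, against 0.184, 0.610, 0.239 and 0.335 RPKM in the sufficient tumors. Its groups overlapped, with deficient replicate 2 the highest. Of 15 further lipid handling genes, 13 were tested and 11 were positive, with a median of 0.34. Abca1, the cholesterol exporter that loads apolipoproteins, measured 2.21 and 6.13 RPKM in the deficient tumors, against 1.05, 0.636, 0.855 and 1.03 RPKM in the sufficient tumors (log2 fold change 1.34 ± 0.33 SE, limma adjusted p = 0.893). Abcg1, which exports cholesterol to high-density lipoprotein, measured 9.63 and 10.3 RPKM in the deficient tumors, against 6.55, 2.49, 3.30 and 6.51 RPKM in the sufficient tumors. Both exporters lay above every sufficient tumor, as Apoe did, and neither passed the adjusted threshold.

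Marker genes of other cells were measured beside the members, and their part in the results was not tested. The summed level of 16 macrophage-restricted members was 46.7 and 63.1 RPKM in the deficient tumors, against 33.7, 20.3, 22.1 and 37.5 RPKM in the sufficient tumors. Much of each sum came from Cd68, Mpeg1 and Cd5l. Cd68 measured 10.6 and 17.4 RPKM in the deficient tumors, against 3.68 to 6.72 RPKM in the sufficient tumors. Mpeg1 measured 11.2 and 13.1 RPKM against 5.76 to 14.6 RPKM, and Cd5l 6.78 and 8.24 RPKM against 0.542 to 11.7 RPKM. Whether the sums stay apart without these genes was not tested. The summed level of 13 neutrophil markers was 111 and 288 RPKM in the deficient tumors, against 1671 and 1729 RPKM in the neck nodes and 240 and 210 RPKM in the thymic sufficient tumors. It separated neck nodes from thymic tumors and not the genotypes, and all 13 neutrophil markers were higher in neck nodes at an unadjusted p under 0.05, with 0 past the adjusted threshold (limma, lowest adjusted p = 0.0630). The 8 members shared with neutrophils summed to 207 and 214 RPKM in the deficient tumors, against 366, 188, 149 and 265 RPKM in the sufficient tumors. Most of each sum was Lyz2, at 139 and 149 RPKM against 271, 115, 93.3 and 182 RPKM. Whether these sums follow the neutrophil markers was not tested.

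The 8 members of many cell types summed to 278 and 435 RPKM in the deficient tumors, against 161, 182, 180 and 271 RPKM in the sufficient tumors. For 8 fibroblast markers the sums were 10.9 and 22.5 RPKM in the deficient tumors, against 10.5 to 16.6 RPKM in the sufficient tumors, and for 6 endothelial markers they were 15.1 and 23.6 RPKM against 9.99 to 22.7 RPKM. Both lists overlapped between groups, and deficient replicate 2 was the highest for each, as it was for most members. The fibroblast sum mixes directions. Thy1 was 2.04 and 1.69 RPKM in the deficient tumors, against 3.71 to 10.5 RPKM in the sufficient tumors (log2 fold change -1.48). The 4 other tested genes of that list had positive log2 fold changes, up to 1.56 for Dcn. Pecam1 made up most of the endothelial sums, at 14.5 and 22.9 RPKM against 9.51 to 22.2 RPKM. For 6 thymic epithelial markers the sums were 1.01 and 2.32 RPKM in the deficient tumors, against 0.129 to 0.906 RPKM in the sufficient tumors, with Foxn1, a transcription factor that defines these cells, at 0.00600 and 0 RPKM against 0. The keratin Krt8 was 0.450 and 1.64 RPKM in the deficient tumors against 0 to 0.555 RPKM in the sufficient tumors, and Krt5 0.299 and 0.252 RPKM against 0 to 0.176 RPKM. For 13 T and NK cell markers they were 51.8 and 58.3 RPKM in the deficient tumors, against 61.5 to 111 RPKM in the sufficient tumors. The sums of 8 B-lineage markers were 2248 and 1379 RPKM in the deficient tumors against 1349 to 2045 RPKM in the sufficient tumors, those of 8 dendritic cell markers 49.3 and 44.8 RPKM against 27.8 to 56.2 RPKM, and those of 7 erythroid markers 14.8 and 47.8 RPKM against 22.5 to 196 RPKM. For 5 salivary gland markers, a tissue that lies beside neck nodes, the sums were 72.1 and 68.6 RPKM in the neck nodes, against 0.310 and 0.539 RPKM in the thymic sufficient tumors, and 2 of these genes passed the adjusted threshold between sites. Of the marker lists of other cell types, only the thymic epithelial sums (higher in the deficient tumors) and the T and NK cell sums (lower) did not overlap between genotypes. The sums of the 8 members of many cell types did not overlap either. The margins were small for thymic epithelium (1.01 against 0.906 RPKM, at low levels) and for many cell types (278 against 271 RPKM). The latter sum includes Apoe, at 54.6 and 107 RPKM against 15.3 to 24.8 RPKM. Cd2, a large part of the T and NK cell sums, overlapped between genotypes, at 31.4 and 33.3 RPKM against 12.7 to 76.5 RPKM. The plot of summed levels sets 6 of the lists side by side.

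**Figure D3:**
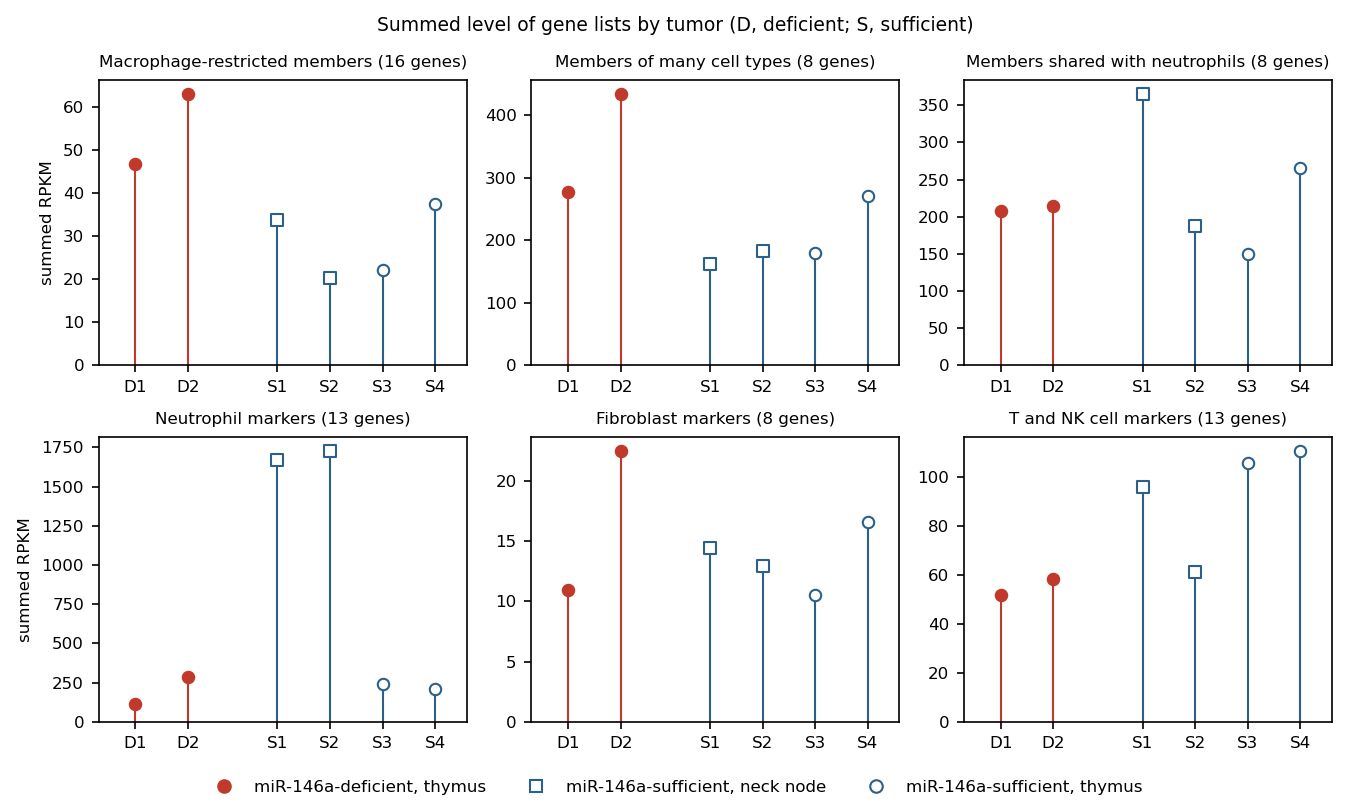
Summed RPKM of 6 gene lists on the y axis (linear, from 0, its own scale in each panel) in each tumor on the x axis (D, deficient; S, sufficient); filled circles are deficient thymic tumors, open squares sufficient neck nodes and open circles sufficient thymic tumors. The macrophage-restricted sums were 46.7 and 63.1 RPKM in the deficient tumors and at most 37.5 RPKM in the sufficient ones. Much of each came from Cd68, Mpeg1 and Cd5l. The neutrophil sums were 1671 and 1729 RPKM in the neck nodes and at most 288 RPKM elsewhere.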

How the data were processed

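RNA was extracted with Trizol from suspensions of 6 whole tumors, and libraries were sequenced on an Illumina HiSeq with single-end reads of 100 bases. Per the paper's methods and the submitters' notes, the authors aligned reads to GRCm38 with STAR 2.3.0, counted them per Ensembl gene (release 71) with HTSeq 0.5.4p3 and tested counts with DESeq (1.12.1 in the labels). Each deposited value is the RPKM of 1 gene in 1 tumor, and how the authors derived RPKM from counts is not stated. The labels give 2 technical replicates per tumor, which the file does not separate. No counts were given and whole reads could not be recovered from the low values, so depth is unknown, no count test was run and no counting interval is given. The spread between tumors, which came from separate mice, is the measure of precision.

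limma 3.58.1 in R 4.3.3, with a prior that follows mean expression, was run on log2(RPKM + 1) of the 12751 genes, out of 38293, that reached 0.5 RPKM in 2 or more tumors. Fold changes on this scale understate the change of low genes. Adjusted p-values are Benjamini-Hochberg over all tested genes, with a threshold of 0.05. The thymic and site comparisons used a fit of 3 groups (deficient thymus, sufficient neck node, sufficient thymus) over all 6 tumors. Single members were compared by exact two-sided permutation with SciPy 1.17.1. The test was checked on simulated data. The microRNA gene, Mir146, is listed at 0 in each of the 6 tumors and gives no check of genotype. Genotype and labelled sex cannot be told apart, nor can site and age among the sufficient tumors. The sex label of deficient replicate 2 is itself in doubt.

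All 32 members are named with their values, and of the pathway and cell type lists up to 2 genes in each direction with the widest log2 fold change, with Csf1, Il34, Spic, Cd79a, Foxn1, Krt5 and Krt8 named beside them after their values were seen. The members and lists were chosen with earlier results of these data known. Gene coordinates and 3′UTRs are from GENCODE M21 on GRCm38. The sequences of the microRNA and of the windows at listed starts are from RefSeq. Alternatives changed the pseudocount, the filter, the scaling, the prior, the tumors included, the tumor site term and the replicate block.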

Additional observations from a re-analysis of the deposited data

Results flagged for a closer look

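In the group of 4 miR-146a-sufficient tumors, sufficient replicate 4 stood apart from the other 3 for 5 of the 32 members, each time as the highest, by Dixon's test at the 95% level (critical value 0.829). Chance singles out about 1 in 20 groups of this size if values are normally distributed, and the members are not independent of each other. The test was applied to RPKM without a log scale. The share of all genes flagged in the same way was not computed, so whether this is particular to the members was not tested. Cd163 measured 0.439 RPKM there (gap over range 0.953), Cd14 3.06 RPKM (0.837), Trem2 0.508 RPKM (0.865), Cd5l 11.7 RPKM (0.910) and Lgmn 75.9 RPKM (0.888). Sufficient replicate 4 also had the highest Csf1 of the 6 tumors, at 6.13 RPKM. Groups of 2 deficient tumors are too small for this test.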

How the results depend on the processing

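The adjusted threshold was passed by 0 members in each of the 3 comparisons under every alternative run. Between all tumors, members higher at an unadjusted p under 0.05 numbered 10, against 5 with median-ratio scaling, 5 with a term for tumor site and 2 to 15 when each tumor was left out in turn. Members lower numbered 0, against 1 with median-ratio scaling and 0 to 2 with each tumor left out. The median log2 fold change was 0.55, against 0.92 with a pseudocount of 0.1, 0.24 with a pseudocount of 5 and 0.34 to 0.63 with each tumor left out. The count of all 32 members above every sufficient tumor was 11, and 11 to 20 with each tumor left out. Where 1 deficient tumor is left, it is assumed to vary like the sufficient tumors. Among thymic tumors, members higher numbered 5, against 9 with no filter on low values and 3 to 9 with each tumor left out (8 without deficient replicate 1, 3 without deficient replicate 2 or sufficient replicate 3, 9 without sufficient replicate 4). Members lower numbered 0, against 1 with median-ratio scaling and 0 to 2 with each tumor left out, and the median of 0.51 ranged over 0.24 to 0.68 with each tumor left out and was 0.76 and 0.22 with pseudocounts of 0.1 and 5. Between sites, members lower in neck nodes numbered 2, against 1 with a mean RPKM of at least 1, 0 with no filter, 0 with a pseudocount of 5 and 0 to 5 with each tumor left out. Members higher numbered 1, and 0 to 3 with each tumor left out. The median of -0.08 ranged over -0.27 to 0.06 and turned positive, to 0.06, without sufficient replicate 4. For single members, 596 values under the alternatives kept direction and side of the threshold and 9 turned sign. Lyz2 was 0.14 with a term for tumor site and ranged over -0.31 to 0.20 with each tumor left out, positive without sufficient replicates 1 (0.20) and 4 (0.01). Lyz1 ranged over -0.31 to 0.01, positive without sufficient replicates 3 and 4, and Lgmn over -0.00, without deficient replicate 2, to 1.60. The causes were not tested. With the replicate number as a block, members lower numbered 1, and Lyz1 (0.20), Fcer1g (-0.08) and Lgals3 (0.04) turned sign. Deviations of same-numbered tumors correlated at 0.0192 and 0.213, and the pairs came from different mice and sites, so the numbers do not pair the tumors. No paired analysis was possible among thymic tumors because the deficient numbers fall on neck node sufficient tumors. With 2 deficient tumors the exact test cannot pass 0.05, and the depth behind low members such as Vsig4 and Cd163 is unknown.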
